A study of Mus musculus with 12 samples.

Results

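The mitochondrial ribosomal protein genes were examined in mouse embryonic fibroblasts (MEFs) of both sexes labelled as wild-type (WT) or knockout (KO) for Sirt3, the main deacetylase of the mitochondrial matrix. The members were the protein-coding genes whose symbol is Mrpl or Mrps followed by a number and at most 1 letter, and 78 of the 34866 genes in the table met this rule. Of these, 49 were Mrpl genes, named for the large subunit, and 29 were Mrps genes, named for the small subunit. Levels are in TPM, the share of a library's transcripts that a gene takes once its length is accounted for. All 78 averaged 1 TPM or more and so entered the tests, as did 12504 genes in all.

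The series held 12 polyA RNA libraries, 3 for each genotype in each sex of MEFs. The cells of all 4 groups came from 13-day-old embryos, the WT ones of 129S1/SvImJ mice and the KO ones of a Sirt3 KO stock, and all were immortalized with SV40 T-antigen. RNA was taken at passage 6, 48 h after seeding, and the wells were seeded in triplicate. The number of embryos or lines behind each group was not given in the sources used here, so line, genotype and sex cannot be told apart and the p-values measure the spread between these libraries only.

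Sirt3 itself was measured at 6.59, 7.17 and 9.07 TPM in male WT and at 8.88, 10.9 and 11 TPM in male KO (log2 fold change 0.39 ± 0.14 (SE), adjusted p = 0.0981). In the females it was at 7.40, 7.60 and 8.69 TPM in WT and at 7.57, 9.06 and 8.19 TPM in KO (0.06 ± 0.11, adjusted p = 0.772). The KO label therefore did not go with less Sirt3 transcript in either sex. A deletion that leaves a transcript in place would not be seen in a value per gene. Beside transcripts, the paper shows an immunoblot of Sirt3 protein and reports lower mitochondrial respiration in KO cells of both sexes. Neither was examined here. KO stands below for the label.

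The mitochondrial ribosome translates the few proteins that mitochondrial DNA encodes, all of them membrane subunits of oxidative phosphorylation. Its proteins are encoded in the nucleus, made in the cytosol and imported, and each assembled ribosome carries them in fixed numbers beside RNAs made in the organelle. The small subunit binds the mRNA and decodes it. The large subunit joins the amino acids and releases the chain through a tunnel that opens at the inner membrane. One of its proteins, MRPL10, is a known substrate of SIRT3, but acetylation was not measured here.

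Each library held between 12256 and 12637 genes at 1 TPM or more, and transcripts of mitochondrial DNA took between 3.14% and 3.82% of the TPM. All 10 fibroblast markers were present at 1 TPM or more, while Adgre1 was at 0 and Cdh1, Krt8, Pecam1, Cdh5, Ptprc, Myod1 and Myog were each below 1 TPM on average. At 1 TPM or more were 3 of 5 epithelial, 1 of 4 endothelial, 1 of 4 blood, 1 of 3 muscle and 4 of 4 neural markers, and the sums moved with the groups. The 4 neural markers summed to between 78.1 and 81.2 TPM in male WT, 51.8 and 55.5 TPM in male KO, 93.9 and 96.98 TPM in female WT and 62.8 and 74.6 TPM in female KO, without overlap between genotypes. The 10 fibroblast markers summed to between 10251 and 11369 TPM in male WT, 12390 and 13093 TPM in male KO, 8193 and 8338 TPM in female WT and 10417 and 10675 TPM in female KO. Within each sex the genotypes did not overlap in these sums, but the female KO range lay inside that of male WT. Muscle markers were at 5.71 to 6.60 TPM in female WT and at or below 0.344 TPM in the other groups, and endothelial ones at 4.72 to 5.76 TPM in female WT and at or below 2.25 TPM in the others. The blood sums overlapped, at 3.98 to 10.02 TPM. The 5 epithelial markers summed to between 76.0 and 77.8 TPM in male WT and to between 7.90 and 8.78 TPM in male KO, with Krt19 the highest of them, and to between 19.7 and 22.7 TPM in female WT and between 7.40 and 10.2 TPM in female KO. Their part in the results below was not tested.

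TPM is a level per transcript length, so members can be set beside each other. The lowest were Mrpl48 at 10.4 TPM, Mrpl1 at 16.2 TPM and Mrpl11 at 16.2 TPM as means over the 12 libraries, and the highest were Mrpl54 at 196 TPM, Mrps21 at 215 TPM and Mrpl52 at 422 TPM. Mrpl48 was at 11.9, 12 and 10.5 TPM in male WT, 10.9, 9.96 and 11.8 TPM in male KO, 9.41, 8.73 and 11.3 TPM in female WT and 9.0, 10.8 and 8.82 TPM in female KO, and Mrpl1 was at 18.8, 16.6 and 18.3 TPM in male WT, 15.6, 15.1 and 13.5 TPM in male KO, 16.9, 15.9 and 19.8 TPM in female WT and 13.7, 14.2 and 16.6 TPM in female KO. Neither was called between genotypes, although the male groups of Mrpl1 did not overlap. Mrpl54 was at 198, 199 and 192 TPM in male WT, 204, 206 and 209 TPM in male KO, 193, 187 and 202 TPM in female WT and 201, 185 and 180 TPM in female KO, and was not called either. Within a library the highest member stood between 33.3 and 47.5 times above the lowest, although their proteins enter the ribosome in equal numbers but for the stalk. Together the members took between 0.637% and 0.681% of all TPM in any library. Their values were steady among replicates: the median coefficient of variation over members was 4.88% in male WT, 5.79% in male KO, 5.81% in female WT and 5.15% in female KO, against 7.29% to 8.20% over all genes tested. The widest spreads belonged to Mrps35 in male KO (54.1, 45.3 and 30.0 TPM), Mrps23 in female KO (62.8, 59.8 and 38.5 TPM) and Mrpl47 in female WT (35.5, 25.5 and 42.0 TPM).

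**Figure D1:**
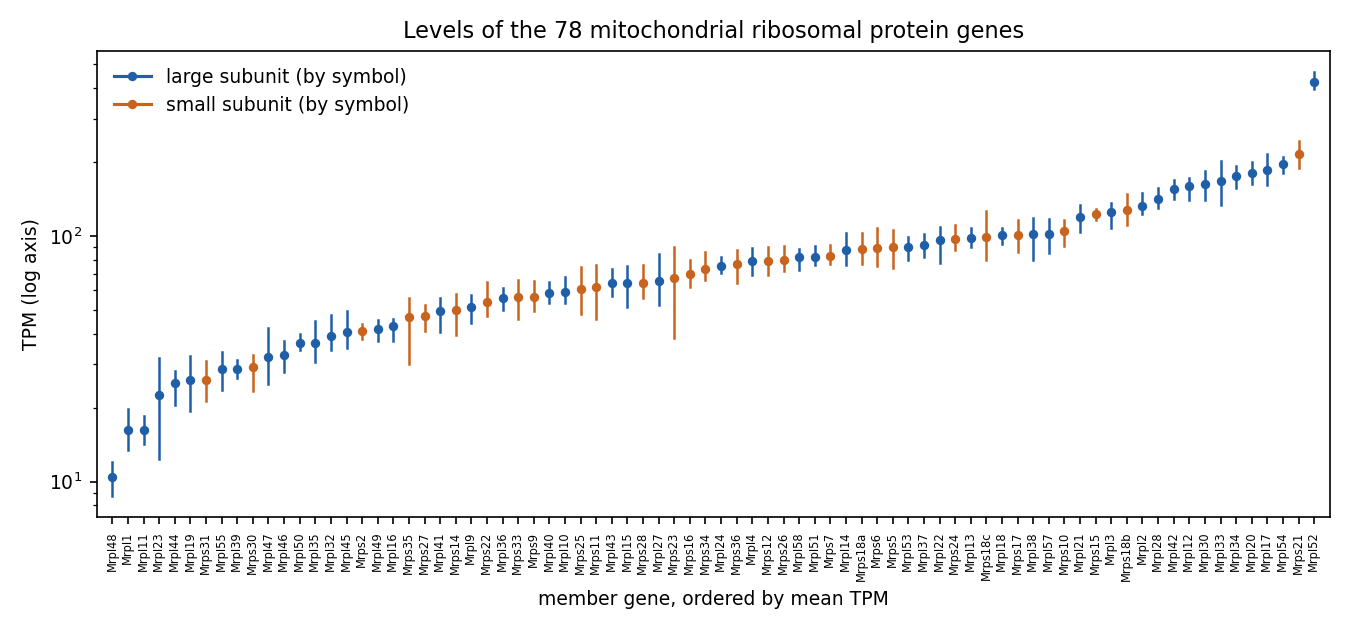
TPM on a log axis for each of the 78 members, ordered by the mean over the 12 libraries. Points are means and lines run from the lowest to the highest library, in blue for Mrpl and orange for Mrps genes. Mrpl52 stands alone at the top at 422 TPM, and Mrpl23, Mrps35 and Mrps23 show long lines.

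In male KO, 12 members were lower and 3 were higher than in male WT at an adjusted p under 0.05, and 63 were not called. Over all genes tested, 10.9% were called lower, 10.7% higher and 21.6% in either direction, and of the members 15.4% lower, 3.85% higher and 19.2% in either direction. The median log2 fold change of the members was -0.08, against -0.02 over all genes, and 55 of the 78 (70.5%) lay below 0, against 52.5% of all genes. The changes were small: apart from Mrpl23, the called members lay between -0.37 and 0.26 on the log2 scale. Leaving out 1 library at a time gave 3 to 9 members lower and 0 to 2 higher, the fewest lower without male WT replicate 3 and the most without male KO replicate 1. Without the mean-variance trend 6 were lower and 0 higher. The share of all genes called in either direction fell as well. It was 14.5% to 18.5% with a library left out and 18.5% without the trend.

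In female KO, 6 members were lower and 2 were higher than in female WT, beside 5.84% lower, 5.63% higher and 11.5% in either direction over all genes. Of the members 7.69% were lower, 2.56% higher and 10.3% either. These counts depend on the fit: with all 12 libraries in one fit 12 were lower and 4 higher, beside 13.7% of all genes in either direction. At a mean of 5 TPM or more 10 were lower. There 13.6% of all genes were called in either direction, and their share lower alone was not counted. Their median log2 fold change was -0.06, against -0.02 over all genes, and 51 of the 78 (65.4%) lay below 0, against 55% of all genes. The 3 KO libraries all lay below the 3 WT libraries for 25 members (32.1%, background 18.7%) and all above them for 4 members (5.13%, background 14.9%). In the males the same counts were 20 below (25.6%, background 21.2%) and 7 above (8.97%, background 18.8%). Leaving out female WT replicate 1, female WT replicate 3 or female KO replicate 3 left 1 member lower, leaving out female KO replicate 1 left 2, and the other 2 omissions left 4 and 5. The share of all genes called in either direction fell as well, to between 6.19% and 6.68%.

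The male and female comparisons share no library. No member was called in both, beside 5.84% of all genes, 23 (29.5%) were called in either, beside 27.3%, and 55 in neither. With so few calls among 78 members, nothing was read from the count of 0. On the log2 scale 40 members lay below 0 in both sexes (51.3%, against 34.3% of all genes), 12 lay above 0 in both, 15 were below 0 in the males only and 11 in the females only. Of the 12 members called lower in male KO, 9 lay below 0 in female KO. Of the 6 called lower in female KO, 6 lay below 0 in male KO. Of all members, 65.4% lay below 0 in female KO and 70.5% in male KO, so little was read from these counts. The sign was the same in both sexes for 66.7% of members and 61% of all genes. Pearson's r between the male and female log2 fold changes was 0.22 over members and 0.23 over all genes. These are descriptions across genes, which are not replicates, and the members were measured in the same 12 libraries.

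The medians of both subunits lay below 0 in both sexes. In male KO the median log2 fold change was -0.08 for the 49 Mrpl genes, with 8 lower and 2 higher, and -0.09 for the 29 Mrps genes, with 4 lower and 1 higher. In female KO it was -0.06 for Mrpl, with 4 lower and none higher, and -0.07 for Mrps, with 2 lower and 2 higher. The gap between the subunits was smaller than the SD between replicate libraries of the median log2(TPM + 1), which was 0.05 for Mrpl and 0.06 for Mrps. The median Mrpl level was 77.1 ± 4.3 TPM (SD, n = 3) in male WT, 72.4 ± 1.0 TPM in male KO, 73.2 ± 1.7 TPM in female WT and 71.0 ± 2.1 TPM in female KO. The median Mrps level was 75.1 ± 4.2, 73.8 ± 2.2, 74.3 ± 2.6 and 69.4 ± 3.4 TPM in the same order. The ratio of the medians, Mrpl over Mrps, ran from 0.942 to 1.17 over the 12 libraries, and each group's range overlapped those of the other 3.

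**Figure D2:**
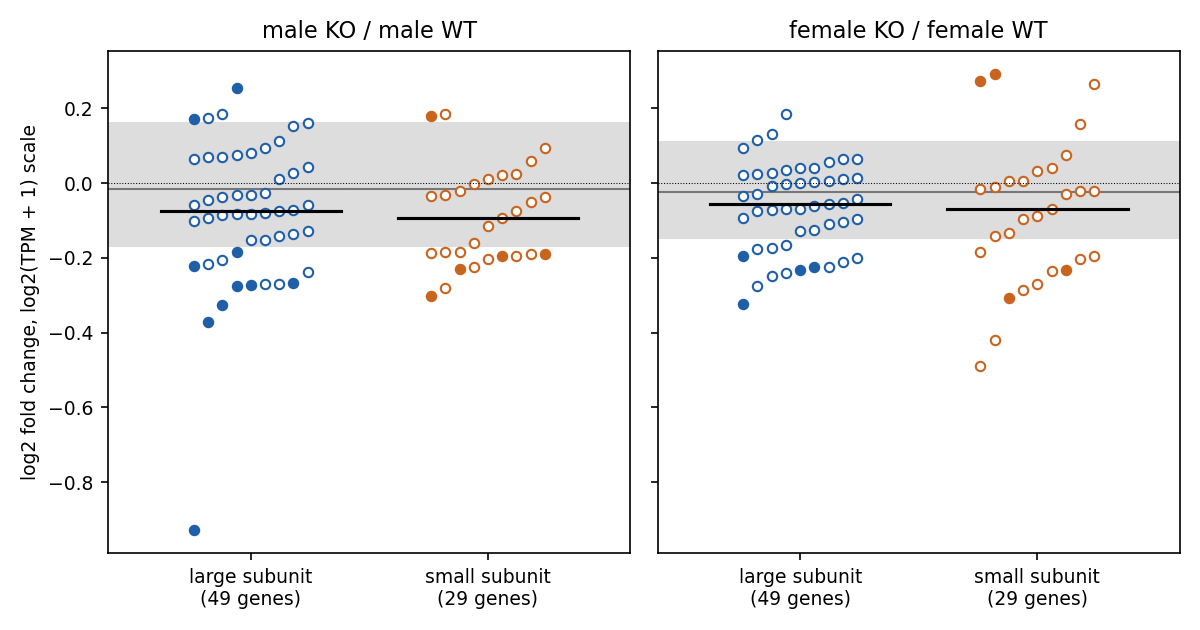
Log2 fold change of each member (49 Mrpl in blue, 29 Mrps in orange), male KO against male WT on the left and female KO against female WT on the right; filled points passed an adjusted p under 0.05. Black lines are the medians of the members, and the grey band and line are the quartiles and median of all 12504 genes; 55 of the 78 members lie below 0 on the left and 51 on the right, and Mrpl23 lies apart at -0.93 in the males.

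Some names do not match the subunit. Mrps30 and Mrps18a are components of the large subunit in the known structures, and Mrps36 is an adaptor of the 2-oxoglutarate dehydrogenase complex. With the first pair counted as large and Mrps36 left out, the medians were -0.08 for 51 large and -0.08 for 26 small members in male KO, and -0.06 and -0.05 in female KO. Mrps30 was at 32.6, 30.9 and 28.2 TPM in male WT, 28.4, 23.4 and 28.2 TPM in male KO, 31.2, 29.8 and 32.6 TPM in female WT and 28.1, 27.5 and 28.96 TPM in female KO. It did not pass the test in either sex (adjusted p = 0.203 and 0.165). Mrps36 was at 80.1, 68.8 and 78.7 TPM in male WT, 76.6, 64.1 and 87.9 TPM in male KO, 75.1, 82.8 and 72.8 TPM in female WT and 71.7, 84.9 and 75.1 TPM in female KO, with overlap in both sexes (adjusted p = 0.992 and 0.976).

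The stalk of the large subunit recruits the translation factors, and consists of copies of MRPL12 on a base that holds MRPL10 and MRPL11. Mrpl12 was at 171, 167 and 164 TPM in male WT and at 156, 140 and 146 TPM in male KO. The male groups did not overlap, and Mrpl12 was 12% lower in male KO (log2 fold change -0.18 ± 0.05 (SE), adjusted p = 0.0361). In the females it was at 164, 155 and 172 TPM in WT and at 159, 162 and 153 TPM in KO, with the groups overlapping (-0.05 ± 0.05, adjusted p = 0.529). Mrpl10, whose protein is the substrate named above, was at 61.2, 58.0 and 61.7 TPM in male WT and at 55.0, 54.1 and 53.3 TPM in male KO (-0.15 ± 0.05, adjusted p = 0.0635). The male groups did not overlap but the difference missed the threshold, and in the females it was -0.10 ± 0.06 (adjusted p = 0.313). Mrpl10 was at 59.1, 64.2 and 67.7 TPM in female WT and 57.7, 58.2 and 61.3 TPM in female KO. Mrpl11 was at 15.3, 16.8 and 15.95 TPM in male WT, 16.2, 14.2 and 16.6 TPM in male KO, 17.1, 16.2 and 18.4 TPM in female WT and 16.2, 16.7 and 15.3 TPM in female KO. Its groups overlapped in both sexes, and it differed by -0.03 ± 0.09 in the males and -0.10 ± 0.08 in the females (adjusted p = 0.83 and 0.466).

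At the end of the exit tunnel, MRPL22, MRPL23 and MRPL24 line the rim and MRPL45 ties the ribosome to the inner membrane. Mrpl45 was at 42.4, 43.3 and 43.5 TPM in male WT and at 36.4, 35.0 and 35.2 TPM in male KO. The groups stood well apart, and Mrpl45 was 17.5% lower in male KO (-0.27 ± 0.05, adjusted p = 0.00936). In the females it was at 43.8, 49.6 and 44.1 TPM in WT and at 40.1, 35.2 and 40.7 TPM in KO. These groups did not overlap either, but with a wider spread the difference of -0.24 ± 0.08 did not pass (adjusted p = 0.0996), and the interaction was -0.03 ± 0.09 (adjusted p = 0.886). Mrpl22 was at 102, 108 and 104 TPM in male WT and at 93.6, 77.2 and 90.7 TPM in male KO (-0.27 ± 0.08, adjusted p = 0.0479), without overlap, and at 103, 95.2 and 96.9 TPM in female WT and 100, 91.4 and 91.3 TPM in female KO (-0.06 ± 0.05, adjusted p = 0.513). The Mrpl22 call was lost in 5 of 6 omissions of a library, and kept without male KO replicate 1. Mrpl24 was at 74.8, 82.3 and 80.4 TPM in male WT, 71.3, 79.9 and 73.3 TPM in male KO, 73.7, 71.3 and 74.7 TPM in female WT and 74.7, 76.7 and 70.4 TPM in female KO. It overlapped in both sexes, with -0.08 ± 0.06 and 0.01 ± 0.05 (adjusted p = 0.397 and 0.884).

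Mrpl23 had the largest change of any member. It was at 21.6, 31.8 and 30.6 TPM in male WT and at 12.3, 14.1 and 15.8 TPM in male KO, 49.6% lower on average (-0.93 ± 0.16, adjusted p = 0.00741). In the females it was at 19.6, 25.7 and 26.0 TPM in WT and at 19.9, 27.1 and 25.7 TPM in KO, with the groups overlapping throughout (0.03 ± 0.15, adjusted p = 0.929). Part of the value cannot be told apart from reads of another locus. The genome holds a processed pseudogene, Mrpl23-ps1 (chr2:74591330-74591909 in GRCm38), that carries the whole coding sequence of Mrpl23 (gene at chr7:142532686-142540747). The 441 bases of the coding sequence in GENCODE matched the pseudogene at 441 of 441 positions, and 92.7% of the 31-base words of the pseudogene transcript also occurred in Mrpl23 transcripts. Of the 31-base words of Mrpl23 itself, 53.0% occurred in the pseudogene, so the overlap was partial on that side. The first 150 coding bases, which serve here to show that no read within them can be assigned to one copy, are the same in both and so carry no capitals.

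Mrpl23 and Mrpl23-ps1: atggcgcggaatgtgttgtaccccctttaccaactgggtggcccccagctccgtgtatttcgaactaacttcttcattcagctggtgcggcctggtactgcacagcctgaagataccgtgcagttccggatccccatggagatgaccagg

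The pseudogene was listed at 87.8, 62.4 and 75.9 TPM in male WT and at 122, 111 and 99.5 TPM in male KO. It was higher in male KO where Mrpl23 was lower (0.56 ± 0.13, adjusted p = 0.0222), and the male groups did not overlap. In the females it was at 71.8, 64.4 and 65.5 TPM in WT and at 97.7, 76.7 and 65.1 TPM in KO (0.23 ± 0.14, adjusted p = 0.349). The share of the summed TPM given to Mrpl23 was 19.7%, 33.8% and 28.7% in male WT and 9.17%, 11.3% and 13.7% in male KO. With both summed, the direction turned: the sum was at 109, 94.1 and 106 TPM in male WT and at 135, 125 and 115 TPM in male KO (0.27 ± 0.08, adjusted p = 0.0461). The sums in the females were 91.4, 90.1 and 91.4 TPM in WT and 118, 104 and 90.8 TPM in KO (0.18 ± 0.09, adjusted p = 0.236). Mrpl23 lies 1.65 Mb from Sirt3 on chromosome 7, closer than the other 5 members on that chromosome, which lie between 35.1 and 112 Mb away. Without Mrpl23 the members' median in male KO was -0.08, with 11 lower and 3 higher.

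**Figure D3:**
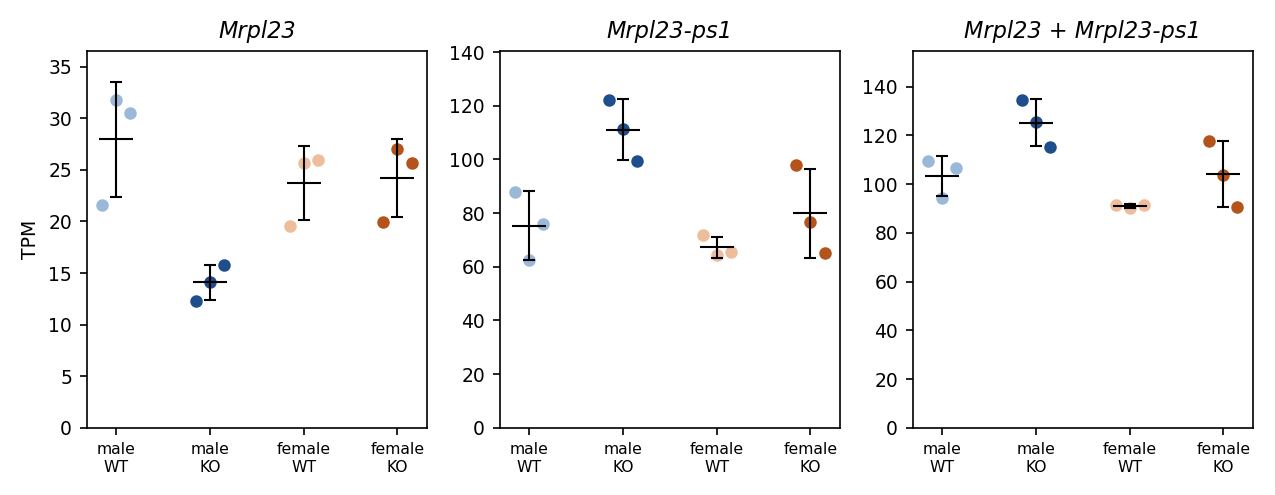
TPM of Mrpl23, of its processed pseudogene Mrpl23-ps1 and of their sum in the 3 libraries of each group; points are libraries, and bars are the mean and SD. Mrpl23 is lowest in male KO (12.3 to 15.8 TPM), the pseudogene is highest there (99.5 to 122 TPM), and the sum is higher there than in male WT.

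The central protuberance tops the large subunit and holds MRPL18, MRPL27, MRPL38, MRPL40 and MRPL46. Mrpl38 was at 104, 118 and 116 TPM in male WT and at 86.0, 79.9 and 94.8 TPM in male KO, without overlap (-0.37 ± 0.08, adjusted p = 0.0144). In the females it was at 92.0, 119 and 112 TPM in WT and 83.6, 99.5 and 117 TPM in KO, with wide overlap (-0.11 ± 0.14, adjusted p = 0.667). Mrpl27 was at 66.9, 84.7 and 80.0 TPM in male WT and at 61.6, 62.4 and 59.1 TPM in male KO (-0.33 ± 0.09, adjusted p = 0.0387). The female groups of Mrpl27, from 52.3 to 71.4 TPM, overlapped each other and male KO (0.06 ± 0.12, adjusted p = 0.775). The call for Mrpl27 in the males was kept only when male WT replicate 1 was left out, and that for Mrpl38 was lost without male WT replicate 2 or 3. Mrpl46 was called in the females, at 36.9, 32.9 and 37.5 TPM in WT and at 28.5, 27.8 and 28.7 TPM in KO (-0.32 ± 0.06, adjusted p = 0.0227). Its male groups, at 32.8, 36.0 and 34.7 TPM in WT and 31.5, 33.6 and 32.5 TPM in KO, overlapped (-0.08 ± 0.06, adjusted p = 0.386), and the interaction did not pass (0.24 ± 0.08, adjusted p = 0.0905). Mrpl18 was at 101, 106 and 95.8 TPM in male WT, 92.7, 96.3 and 106 TPM in male KO, 104, 105 and 108 TPM in female WT and 98.5, 95.2 and 96.6 TPM in female KO, and Mrpl40 at 61.8, 56.6 and 58.7 TPM in male WT, 57.0, 65.0 and 63.5 TPM in male KO, 58.1, 53.2 and 59.5 TPM in female WT and 56.4, 59.5 and 55.9 TPM in female KO. Of these, the female groups of Mrpl18 alone did not overlap. Mrpl18 differed by -0.04 ± 0.06 and -0.12 ± 0.03 (adjusted p = 0.73 and 0.0667), and Mrpl40 by 0.06 ± 0.07 and 0.01 ± 0.06 (adjusted p = 0.533 and 0.93) in the males and females.

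Among the other large-subunit members, Mrpl9 was at 53.6, 55.4 and 55.5 TPM in male WT and at 46.5, 44.7 and 44.2 TPM in male KO. It was 17.7% lower (-0.28 ± 0.05, adjusted p = 0.00777), and the call held with each male library left out in turn. In the females Mrpl9 was at 57.3, 56.2 and 46.0 TPM in WT and at 51.1, 52.0 and 56.3 TPM in KO, and the difference was 0.01 ± 0.09 (adjusted p = 0.979). The interaction for Mrpl9 did not pass (-0.28 ± 0.11, adjusted p = 0.115). Mrpl37 was at 99.7, 94.5 and 101 TPM in male WT and at 82.2, 84.7 and 85.6 TPM in male KO (-0.22 ± 0.04, adjusted p = 0.0131). The females went the same way without passing, at 97.7, 92.2 and 102 TPM in WT and 88.5, 86.2 and 85.3 TPM in KO (-0.16 ± 0.05, adjusted p = 0.0705). Those 4 groups split by genotype, since every KO library of either sex was below every WT library. The same split was seen for other members, among them Mrpl45, Mrpl50, Mrps31 and Mrps11. Its share over all genes was not counted, so nothing was read from it.

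The higher calls in male KO included the most abundant member. Mrpl52 was at 431, 399 and 397 TPM in male WT and at 454, 464 and 464 TPM in male KO (0.17 ± 0.04, adjusted p = 0.0232), and at 395 to 427 TPM in the 6 female libraries. Mrpl14, which lies at the face toward the small subunit, was at 89.8, 82.0 and 77.6 TPM in male WT and at 103, 93.5 and 102 TPM in male KO (0.26 ± 0.07, adjusted p = 0.0352). Both groups of females were at 83.0 and 83.1 TPM on average. In female KO the other large-subunit members that fell were Mrpl49, at 45.2, 45.4 and 44.6 TPM in WT and 37.9, 39.1 and 37.5 TPM in KO (-0.23 ± 0.04, adjusted p = 0.0189), Mrpl28, at 150, 153 and 157 TPM in WT and 139, 134 and 129 TPM in KO (-0.19 ± 0.04, adjusted p = 0.0224) and Mrpl21 (-0.22 ± 0.05, adjusted p = 0.0286), each without overlap of the groups. Mrpl44, whose protein has a ribonuclease III fold, differed by -0.24 ± 0.08 in the males (adjusted p = 0.0909), without overlap, and was not called in the females (adjusted p = 0.987). It was at 25.8, 27.3 and 28.1 TPM in male WT, 23.7, 24.4 and 20.4 TPM in male KO, 26.6, 25.1 and 24.4 TPM in female WT and 25.9, 24.3 and 25.8 TPM in female KO. Mrpl58, the peptidyl-tRNA hydrolase built into the ribosome, was at 88.6, 85.3 and 72.9 TPM in male WT, 85.8, 72.6 and 83.5 TPM in male KO, 81.1, 76.4 and 88.4 TPM in female WT and 85.1, 76.7 and 84.3 TPM in female KO, with overlap throughout.

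In the small subunit, MRPS12 lies at the decoding centre. Mrps12 was at 87.1, 80.7 and 82.0 TPM in female WT and at 71.6, 70.9 and 69.6 TPM in female KO, 15.1% lower (-0.23 ± 0.04, adjusted p = 0.0176). In the males it was at 84.8, 90.3 and 82.2 TPM in WT and at 80.8, 74.6 and 74.4 TPM in KO (-0.16 ± 0.06, adjusted p = 0.0892). Neither pair of groups overlapped, and the interaction was 0.07 ± 0.07 (adjusted p = 0.585).

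The 3 Mrps18 paralogs take different places in the ribosome. Mrps18b was at 140, 144 and 147 TPM in female WT and at 124, 111 and 113 TPM in female KO (-0.31 ± 0.05, adjusted p = 0.0129). In the males it was at 125, 132 and 123 TPM in WT and at 120, 123 and 129 TPM in KO (-0.03 ± 0.05, adjusted p = 0.675). Female WT thus stood above the other 3 groups, and Mrps18b was also lower in male WT than in female WT (-0.18 ± 0.04, adjusted p = 0.0342). Mrps18c was at 126, 99.7 and 112 TPM in male WT, 98.9, 99.4 and 79.5 TPM in male KO, 116, 95.3 and 102 TPM in female WT and 89.1, 84.8 and 81.8 TPM in female KO. It was 17.8% lower in male KO and 18.4% lower in female KO, without overlap in either sex and without passing (adjusted p = 0.13 and 0.0547). Mrps18a was at 83.2, 98.2 and 90.4 TPM in male WT, 77.1, 77.5 and 83.5 TPM in male KO, 92.0, 97.8 and 103 TPM in female WT and 83.7, 88.2 and 83.1 TPM in female KO, overlapping in the males only, and was 12.4% and 12.8% lower (adjusted p = 0.104 and 0.057).

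In the males 5 Mrps genes were called. Mrps10 was at 110, 104 and 116 TPM in male WT and at 95.3, 94.3 and 90.8 TPM in male KO (-0.23 ± 0.05, adjusted p = 0.0184), with 101 to 114 TPM in the female libraries. Mrps27 was at 47.8, 48.1 and 47.3 TPM in WT and at 40.9, 41.4 and 42.5 TPM in KO (-0.19 ± 0.05, adjusted p = 0.0266). Mrps22 (-0.19 ± 0.05, adjusted p = 0.0426) and Mrps31 (-0.30 ± 0.09, adjusted p = 0.0477) were also lower, and were 17.9% and 15.5% lower in female KO without passing (adjusted p = 0.112 and 0.0833). The fifth, Mrps28, was higher and is described with the interaction. Calls for Mrps27, Mrps22 and Mrps28 were lost whichever male library was left out. The lowest estimate in the females was that of Mrps23, at -0.49 ± 0.19 (adjusted p = 0.149), with the female KO libraries at 62.8, 59.8 and 38.5 TPM.

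**Figure D4:**
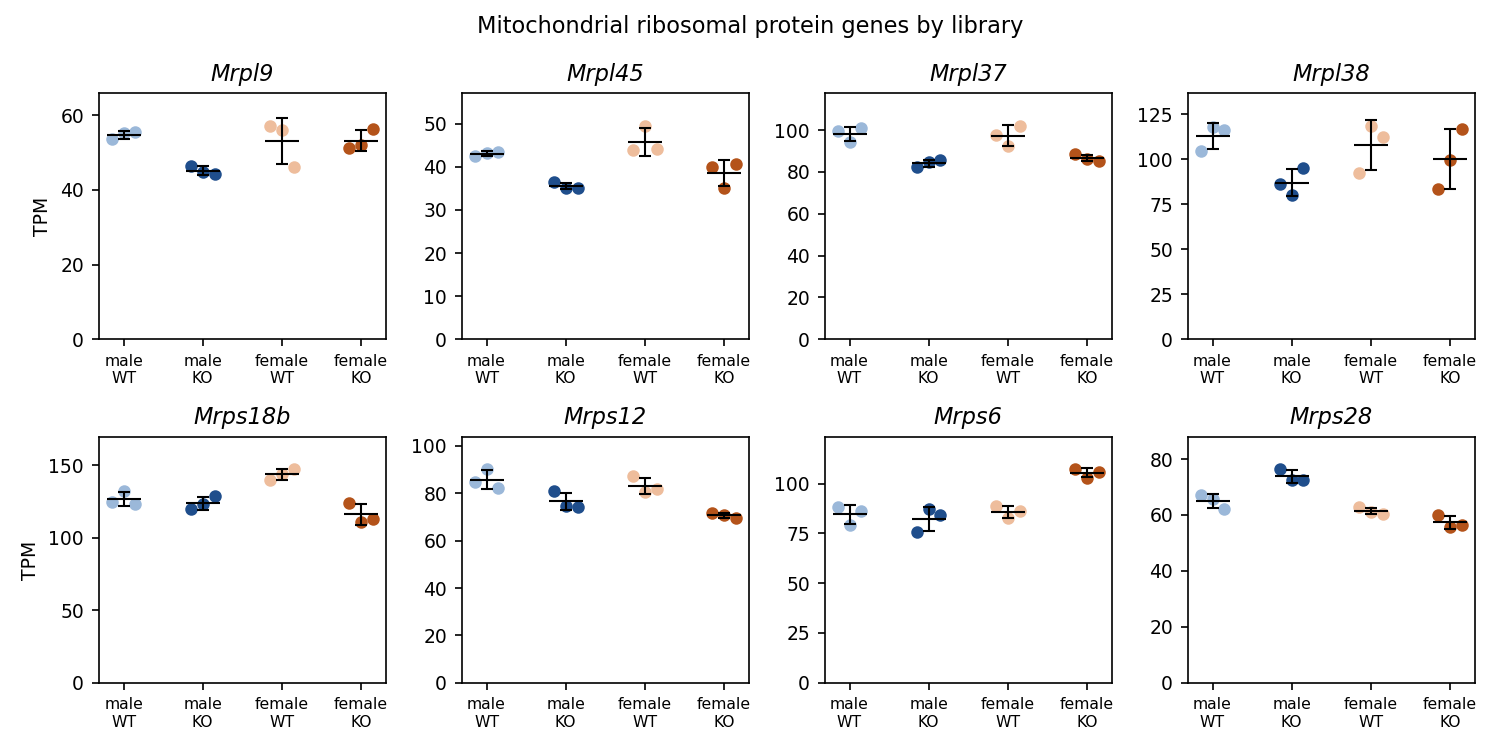
TPM in the 3 libraries of each group for 4 members called in male KO (Mrpl9, Mrpl45, Mrpl37, Mrpl38), 3 called in female KO (Mrps18b, Mrps12, Mrps6) and Mrps28; points are libraries, bars are the mean and SD, and axes start at 0. Mrpl9 sits at 44.2 to 46.5 TPM in male KO, below all 3 male WT libraries, Mrps6 sits at 103 to 107 TPM in female KO, above the libraries of the other groups, and for Mrpl37 and Mrpl45 every KO library lies below every WT library.

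The interaction asks whether the KO against WT difference was the same in both sexes, and is given as the male minus the female log2 fold change. It passed for 6 members, 3 in each direction, beside 13% of all genes (6.7% positive, 6.33% negative) and 7.69% of the members. The difference between these shares was not tested. Leaving out 1 library at a time gave 1 to 5 lower and 1 to 3 higher, beside 10.8% to 12.5% of all genes in either direction. Of the 6, 5 were Mrps genes, which is 17.2% of the 29 Mrps genes, and 1 was among the 49 Mrpl genes (2.04%). These shares stand beside the same 13% of all genes, and their difference was not tested. Mrps28 had the smallest p, at 67.1, 65.7 and 62.1 TPM in male WT, 76.4, 72.3 and 72.5 TPM in male KO, 62.7, 61.2 and 60.5 TPM in female WT and 60.1, 55.8 and 56.4 TPM in female KO. It was higher in male KO (0.18 ± 0.05, adjusted p = 0.044) and not called in female KO (-0.10 ± 0.04, adjusted p = 0.226), with an interaction of 0.28 ± 0.06 (adjusted p = 0.0148) that held with each library left out. Mrps6 was at 88.6, 82.6 and 86.5 TPM in female WT and at 107, 103 and 106 TPM in female KO (0.29 ± 0.04, adjusted p = 0.00684). Its male libraries, from 75.7 to 88.3 TPM, all lay below the female KO ones, and the interaction was -0.33 ± 0.08 (adjusted p = 0.0224). Mrps21, at 218, 226 and 206 TPM in male WT and 205, 198 and 233 TPM in male KO, stood at 189, 201 and 194 TPM in female WT and 222, 241 and 244 TPM in female KO (0.27 ± 0.05, adjusted p = 0.0139), with -0.03 ± 0.07 in the males and an interaction of -0.31 ± 0.09 (adjusted p = 0.0379).

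Mrps18b, described above, had an interaction of 0.27 ± 0.07 (adjusted p = 0.0232). Mrps14 was at 50.03, 48.2 and 48.2 TPM in male WT, 52.2, 58.2 and 56.8 TPM in male KO, 52.9, 48.8 and 49.9 TPM in female WT and 49.5, 44.6 and 39.5 TPM in female KO. It was called in neither sex alone (0.19 ± 0.06 and -0.18 ± 0.08, adjusted p = 0.0593 and 0.221) but its interaction passed (0.37 ± 0.10, adjusted p = 0.038). That of Mrpl23 was -0.96 ± 0.24 (adjusted p = 0.0198), and 0.09 ± 0.13 (adjusted p = 0.731) once the pseudogene was added. For Mrpl9, Mrps10, Mrps27, Mrpl27 and Mrpl38, called in the males and not in the females, the interaction did not pass. Their adjusted p was 0.115, 0.0836, 0.0726, 0.144 and 0.392 in that order. Lines, sex and genotype cannot be told apart in these tests.

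Between the sexes at one genotype, 5 members were called in WT, 2 lower and 3 higher in the males, beside 12.8% of all genes (6.56% lower, 6.26% higher). Their libraries stood apart for 4 members lower (background 18.5%) and 7 higher (background 14.9%) in the males. Mrpl34 was at 163, 157 and 163 TPM in male WT and 192, 179 and 190 TPM in female WT (-0.22 ± 0.04, adjusted p = 0.0146). The members higher in male WT were Mrps17 (0.22 ± 0.04, adjusted p = 0.0189), Mrpl36 (0.23 ± 0.05, adjusted p = 0.0212) and Mrpl15 (0.28 ± 0.07, adjusted p = 0.0348). In KO, 8 members were called, 5 lower and 3 higher in the males, beside 16.6% of all genes (8.39% lower, 8.17% higher), and the libraries stood apart for 7 lower (background 18.7%) and 11 higher (background 16.7%). Mrps28 (0.36 ± 0.05, adjusted p = 0.00367), Mrpl14 (0.26 ± 0.06, adjusted p = 0.0256) and Mrpl52 (0.15 ± 0.03, adjusted p = 0.0204) were higher in male KO. Mrps6, Mrpl23, Mrps27, Mrpl9 and Mrps10 were lower there (-0.35, -0.74, -0.26, -0.23 and -0.20, adjusted p between 0.0082 and 0.0496). These comparisons reuse the libraries of the genotype comparisons and are not independent of them. Over the 5 comparisons, 28 members (35.9%) were called at least once, beside 35.8% of all genes, and 50 never.

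Of the proteins of the mitochondrial ribosome, 5 carry other symbols. Ptcd3, a pentatricopeptide repeat protein of the small subunit, was at 96.3, 97.2 and 94.5 TPM in male WT and at 64.4, 78.7 and 71.5 TPM in male KO (-0.42 ± 0.07, adjusted p = 0.00747). Gadd45gip1, a large-subunit protein, was also lower in male KO (-0.30 ± 0.08, adjusted p = 0.0344), and Dap3, Chchd1 and Aurkaip1 were not called (-0.08 to 0.05). In female KO none of the 5 was called, at -0.18 to -0.06. Of 25 assembly factors, 1 was lower in male KO (Gtpbp10, a GTPase of large-subunit assembly, -0.32 ± 0.07, adjusted p = 0.0246) and 1 was higher in female KO (Fastkd2, an RNA-binding protein, 0.28 ± 0.07, adjusted p = 0.0495), with medians of -0.01 and -0.11. Of 16 translation factors tested, Gfm1, elongation factor G of mitochondria, was lower in male KO (-0.28 ± 0.04, adjusted p = 0.00417). Lrpprc, which stabilises mitochondrial mRNAs, was lower in both sexes, at 61.4, 59.8 and 63.8 TPM in male WT, 49.3, 53.4 and 49.5 TPM in male KO, 68.2, 68.6 and 70.2 TPM in female WT and 55.4, 59.7 and 57.3 TPM in female KO (-0.28 ± 0.05 and -0.26 ± 0.04, adjusted p = 0.0121 and 0.0129). The translation factor list had medians of -0.11 and -0.16. Of 17 genes of mitochondrial transcription and RNA processing, Pnpt1 was lower and Polrmt, the RNA polymerase, was higher in male KO (-0.50 ± 0.08 and 0.47 ± 0.07, adjusted p = 0.00586 and 0.00433), and none was called in female KO. In male KO 4% of assembly factors, 12.5% of translation factors and 5.88% of the last list were lower, beside 10.9% of all genes. In female KO 6.25% of translation factors were lower and 4% of assembly factors higher, beside 5.84% and 5.63%. With lists this short, nothing was read from these shares.

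The proteins of the cytosolic ribosome were read in the same way. Of 84 tested, 9 were lower and 1 was higher in male KO, with a median of -0.05, and 1 was lower and 10 were higher in female KO, with a median of 0.03. As shares these were 10.7% and 1.19% in male KO, beside 10.9% and 10.7% of all genes, and 1.19% and 11.9% in female KO, beside 5.84% and 5.63%. The Mrp members had medians of -0.08 and -0.06, and the difference between the lists was not tested. Of 16 proliferation genes, 3 were lower and 1 was higher in male KO, and 1 was lower and 5 were higher in female KO, with medians of 0.00 and 0.10. These were 18.8% and 6.25% in male KO and 6.25% and 31.2% in female KO, beside the same shares of all genes. Ccnd1, cyclin D1, was the most changed of them, at -1.07 ± 0.05 in male KO and 0.61 ± 0.05 in female KO (adjusted p = 1.92e-05 and 0.000721). How growth rate bears on the members was not tested.

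**Figure D5:**
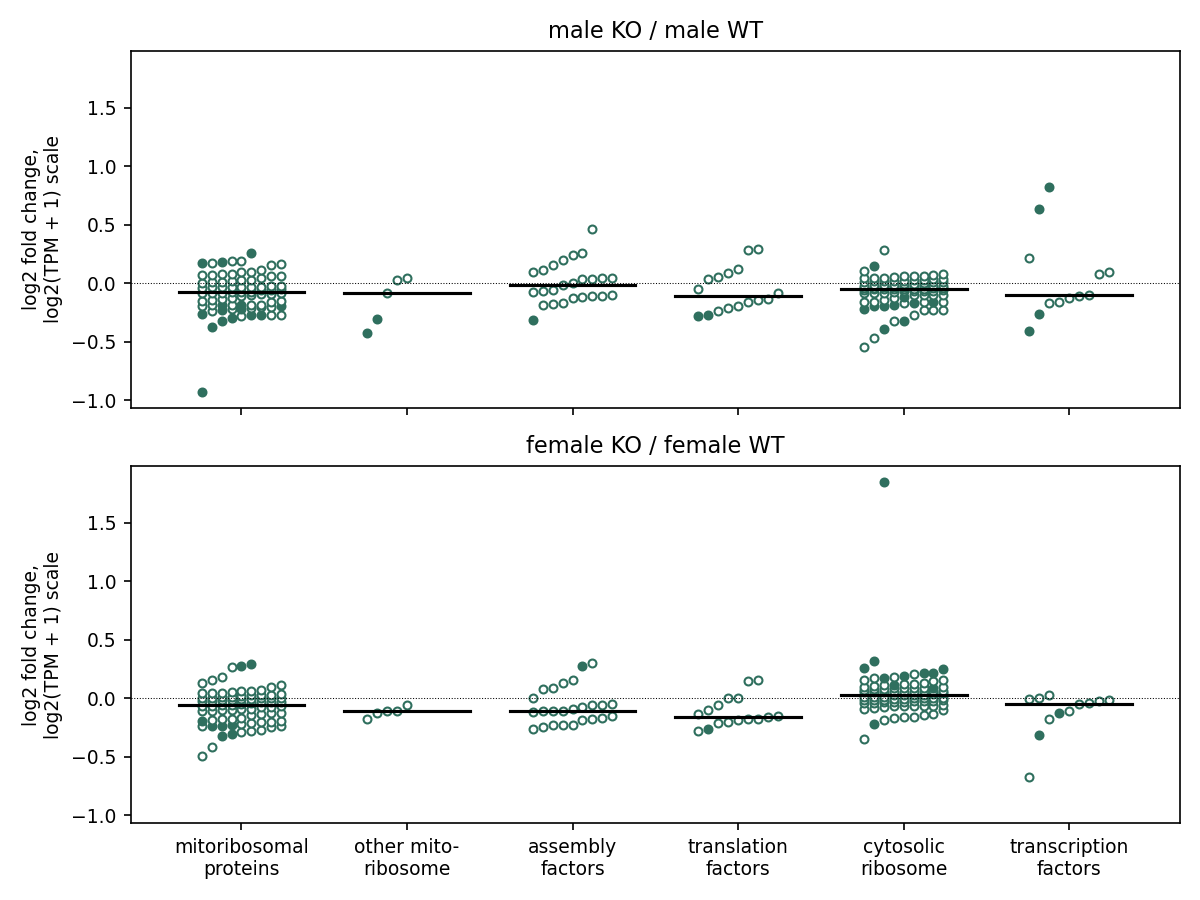
Log2 fold change of each gene in the Mrp members and 5 other lists, male KO above and female KO below, on one scale; filled points passed an adjusted p under 0.05 and black lines are medians. The Mrp median lies below 0 in both panels (-0.08 and -0.06), while that of the cytosolic ribosome is at -0.05 and 0.03 and Atf4 and Atf5 are the highest of the transcription factors in the males. The point at 1.85 in the females is Rpl39l, which is listed at 0 in female WT.

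Among 12 transcription factors of mitochondrial protein genes that could be tested, Nrf1 and Gabpa, which bind many promoters of this family, were not called in either sex (-0.13 ± 0.10 and -0.17 ± 0.09 in the males, -0.10 ± 0.07 and -0.01 ± 0.06 in the females). Yy1 was at 54.0, 52.8 and 51.8 TPM in male WT and at 42.9, 46.2 and 42.8 TPM in male KO (-0.26 ± 0.05, adjusted p = 0.014), and Gabpb2, a partner of Gabpa, was lower as well (-0.41 ± 0.07, adjusted p = 0.00898). Atf4, the main factor of the integrated stress response, was at 204, 218 and 209 TPM in male WT and at 365, 368 and 386 TPM in male KO (0.82 ± 0.04, adjusted p = 2.76e-05), and Atf5 rose with it (0.63 ± 0.03, adjusted p = 3.55e-05). In female KO, Atf4 fell slightly (-0.13 ± 0.03, adjusted p = 0.0285) and Atf5 was not called, and the interaction passed for both (0.95 and 0.68, adjusted p = 2.43e-07 and 2.8e-05). Myc was lower in female KO (-0.32 ± 0.03, adjusted p = 0.00109) and not called in male KO (-0.11 ± 0.04, adjusted p = 0.069). Of the 12, 16.7% were lower and 16.7% higher in male KO, beside 10.9% and 10.7% of all genes. In female KO 16.7% were lower, beside 5.84%, and none was higher.

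RefSeq promoter windows, 250 bases before to 50 after the annotated start (GRCm38.p6), were at hand for 69 of the 78 members. The site of Nrf1, GCGCATGCG, occurred on either strand in 7 of them (10.1%, against 3.97% of 9396 promoters of genes tested here and 1.81% of all 27025). The ETS site bound by Gabpa, CCGGAAG, occurred in 25 (36.2%, against 19.0% and 9.12%), and the Yy1 site AAGATGGCG in 8 (11.6%, against 3.42% and 1.49%). The E-box CACGTG was in 5 (7.25%, against 10.4% and 7.24%) and the Sp1 box GGGCGG in 34 (49.3%, against 66.9% and 35.9%). None of these motifs contains another. Of the 11 members lower in male KO that have a window, 2 held the Nrf1 site, 4 the ETS site, 2 the Yy1 site, 1 the E-box and 3 the Sp1 box. The 120 bases before the RefSeq start of those holding the Nrf1 site are shown, on the gene's own strand with Nrf1 and ETS sites in capitals; they lie at chr3:94443216-94443335 and chr11:58171544-58171663, both on the plus strand.

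Mrpl9: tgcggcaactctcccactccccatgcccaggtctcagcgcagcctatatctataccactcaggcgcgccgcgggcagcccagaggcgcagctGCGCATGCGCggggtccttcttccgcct

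Mrpl22: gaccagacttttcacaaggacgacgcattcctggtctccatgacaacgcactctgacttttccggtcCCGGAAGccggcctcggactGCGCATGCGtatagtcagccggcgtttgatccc

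In Mrpl9 the site reads on both strands and begins 28 bases before the start. In Mrpl22 the Nrf1 site begins 33 and the ETS site 53 bases before it. Both were shown because they held the site and were called lower in male KO, at -0.28 and -0.27. Neither was called in female KO (0.01 and -0.06). Mrpl10, Mrpl17, Mrpl32, Mrpl39 and Mrps18b also held the Nrf1 site and were not called in male KO. A link between the site and the male difference was not tested. A match of letters is a description of the window, and binding was not measured.

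Many members lie head to head with another gene. For 33 of the 78, a protein-coding gene on the opposite strand starts within 1000 bases. The pair Mrps11 and Mrpl46 on chromosome 7 consists of a member of each subunit, and 14.1% of the 31-base words of Mrps11 lie on the other strand of Mrpl46. Mrps11 was at 72.6, 75.9 and 63.9 TPM in female WT and at 51.1, 62.0 and 45.8 TPM in female KO, 25.2% lower beside 20.8% for Mrpl46. The groups of Mrps11 did not overlap, but it missed the threshold (-0.42 ± 0.12, adjusted p = 0.0683), as it did in the males (-0.19 ± 0.06, adjusted p = 0.0513). Counted once each, 30 such pairs had both genes tested, and their log2 fold changes had the same sign for 19 in male KO (63.3%, against 57% of 870 other such pairs) and for 22 in female KO (73.3%, against 58%). Of the 29 partners that are no members, 1 was called in male KO and 2 in female KO, beside 21.6% and 11.5% of all genes. Those called are named for that reason. Mitd1, 66 bases from Mrpl30, was lower in male KO (-0.64, adjusted p = 0.00989) while Mrpl30 was at 0.04 (adjusted p = 0.722). Sars2, the mitochondrial seryl-tRNA synthetase that starts 172 bases from Mrps12, was lower in female KO (-0.31, adjusted p = 0.0223), as was Mrps12. Eme2, 29 bases from Mrps34, was lower in female KO (-0.40, adjusted p = 0.0248), and Mrps34 was not called (-0.13, adjusted p = 0.0963).

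Sequence shared with other genes limits some further values. At least 5% of the 31-base words of 20 members occurred in another gene of at least 1 TPM, on the same strand for 6 of them and on the opposite strand for 17. The use of strand in the quantification was not given in the sources used here, so reads of antisense neighbours cannot be told apart. Among called members this touches, beside Mrpl23, Mrpl14 (12.7%, Tmem63b), Mrps6 (15.8%, Slc5a3), Mrpl21 (6.53%, Ighmbp2) and Mrpl27 (6.20%, Eme1, and 5.23%, Zfp9). Zfp9, on the same strand, was higher in male KO (0.35 ± 0.08, adjusted p = 0.0227), where Mrpl27 was lower. It was also higher in female KO (0.47 ± 0.06, adjusted p = 0.0066), where Mrpl27 was not called. The bearing of Zfp9 on the Mrpl27 value was not tested. Slc5a3, on the same strand as Mrps6, was not called in female KO (0.16 ± 0.08, adjusted p = 0.268) or male KO (-0.34 ± 0.13, adjusted p = 0.117). Its interaction missed the threshold, at -0.50 ± 0.15 (adjusted p = 0.0515), with the same sign as that of Mrps6. The bearing of Slc5a3 on the Mrps6 value was not tested either. The largest overlaps, Mrpl53 with Gm42688 (2.31 TPM), Mrps25 with Nr2c2 and Mrps34 with Mapk8ip3, concern members that were not called in any comparison.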

How the data were processed

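PolyA RNA of 12 libraries (MEFs of each genotype and sex, 3 per group, grouped by their labels) was sequenced, and the authors deposited TPM per gene, made with Salmon (version 1.10.1 per the processing notes) on GRCm38; a count table was not used here. The methods state a target number of reads per sample but not the number reached, so no counting interval is given. The fits used limma 3.58.1 in R 4.3.3 on log2(TPM + 1) values. Their prior variance followed a mean-variance trend, and p-values were adjusted by Benjamini-Hochberg over the 12504 genes averaging 1 TPM or more. The threshold for a call was 0.05. A pair of groups was fitted on its 6 libraries and the interaction on 12. Fold changes on this scale understate changes of low genes. The test was checked on simulated data. Gene names and positions came from GENCODE vM21, which matched 99.4% of the gene identifiers; promoters came from RefSeq.

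The members and gene lists were chosen with earlier results of these data known. Values per library are given for the 6 called members of lowest p in each of both genotype comparisons and the interaction, the 3 highest and 3 lowest members, and members picked for their role; others are given as differences. A gene list whose genes are 2 ribosomal RNAs of mitochondrial DNA, and a comparison of protein sequences, were not analysed here. Alternatives covered the pseudocount (0.1), the filter (none, or 5 TPM), scaling, the trend, a joint fit, a replicate block, the subunit assignment and each library left out; summing Mrpl23 with its pseudogene was chosen after seeing the data.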

Additional observations from a re-analysis of the deposited data

Results flagged for a closer look

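For 6 members the KO against WT difference differed between the sexes by the interaction test of limma over all 12 libraries, with Benjamini-Hochberg adjustment over all genes. That is 7.69% of the members, beside 13% of all genes, and 1 of the 6 calls, Mrps28, was kept whichever library was left out. The male minus female log2 fold change was 0.28 for Mrps28, -0.33 for Mrps6, 0.27 for Mrps18b, -0.31 for Mrps21, 0.37 for Mrps14 and -0.96 for Mrpl23. The value of Mrpl23 was 0.09 (adjusted p = 0.731) when its processed pseudogene was added. Groups of 3 are too small for a test of single libraries that stand apart.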

How the results depend on the processing

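The members' median log2 fold change stayed below 0 in all 14 settings for both genotype comparisons (-0.09 to -0.06 in the males, -0.08 to -0.03 in the females). The median over all genes was below 0 as well, except with median-of-ratios scaling. It ran from -0.03 to 0.003 in the males and from -0.03 to 0.004 in the females. No setting moved the members' medians from the reported value by more than 0.0284, less than the SD of 0.0407 between replicate libraries. Counts of calls moved more, and the cause was not tested. In male KO against WT, members higher numbered 0 with no filter, and 6 were lower and 0 higher without the mean-variance trend. Of all genes, 10.4% and 18.5% were called in either direction in these settings. In female KO against WT, 10 were lower at a mean of 5 TPM or more, and 12 lower and 4 higher with all 12 libraries in one fit. Of all genes, 13.6% and 13.7% were called in either direction there. The interaction had 1 higher without the trend, where 12.2% of all genes were called in either direction. Between WT sexes, 1 was lower with no filter, 5 higher with median-of-ratios scaling, and 0 lower and 1 higher without the trend. The shares of all genes called in either direction were 5.69%, 13.4% and 11% in the same order. Between KO sexes, 3 were lower with no filter, 5 higher with median-of-ratios scaling, quantile normalization or all 12 libraries in one fit, and 3 lower and 1 higher without the trend. The shares of all genes were 7.52%, 16.7%, 17.6%, 21% and 13.8% in the same order. Same-numbered libraries did not deviate together (r from -0.0571 to 0.0779), so the numbers do not pair them. With a replicate block, 1 was higher in male KO and 1 lower in female KO. Between WT sexes 1 was lower and 1 higher, and between KO sexes 3 were lower. The shares of all genes were then 18.9%, 5.36%, 8.91% and 11.2% in the same order. Leaving out 1 library at a time gave 3 to 9 lower and 0 to 2 higher (male), 1 to 5 and 1 to 2 (female), 1 to 5 and 1 to 3 (interaction), 0 to 3 and 0 to 2 (WT sexes), and 2 to 4 and 1 to 5 (KO sexes). The share of all genes called in either direction fell as well. It was 14.5% to 18.5% (male), 6.19% to 6.68% (female), 10.8% to 12.5% (interaction), 8.29% to 9.94% (WT sexes) and 10.6% to 14.6% (KO sexes). Of the calls, 3 of 15 in the males (Mrpl45, Mrpl9, Mrpl23), 1 of 8 in the females (Mrps6) and 1 of 6 in the interaction (Mrps28) were kept whichever library was left out. Under every other setting the calls of Mrpl45, Mrpl37 and Mrpl9 (male), Mrps21 and Mrps6 (female) and Mrps6 and Mrps28 (interaction) were kept, so 2, 1 and 1 calls held under both. Summing Mrpl23 with its pseudogene, chosen after seeing the data, turned its male difference to 0.27 (adjusted p = 0.0461) and its interaction to 0.089 (adjusted p = 0.731). The depth reached in each library was not given in the sources used here, and a difference that missed the threshold may lie below what 3 libraries a group can show.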
